A study of Talpa occidentalis with 24 samples.

Results

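In the gene models deposited for the Iberian mole, Talpa occidentalis, 259 gene names had tandem copies, that is, several models of the same name lying near each other on 1 strand. A name was taken when at least 2 of its models had at least 2 exons each, lay on the same scaffold and strand without overlapping, and were at most 100 kb apart. The ranges they matched on their target records also had to overlap by at least 50% of the shorter range. A target record is the entry, named with a gene symbol, that each model was matched to. Cytochrome P450 names (CYP), olfactory receptor names (OR and a digit) and models without a gene symbol were left out. The 259 names came from 18052 in the annotation, and their 621 tandem models came from 23336. Of the 16106 names that were not left out, 1.61% were tandem.

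The study profiled gonads of wild-type moles at postnatal day 7 by chromatin immunoprecipitation and sequencing. Females of this species carry an ovotestis, whose ovarian portion and testicular portion were taken separately, and males gave the testis. Each of these tissues was represented by 8 libraries, 2 for each of H3K4me3, H3K4me1, H3K27ac and H3K27me3, which made 24 in all. The gene models describe the mole assembly talOcc3 and hold no value for any tissue or library, so no comparison between these tissues enters below.

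Genes are copied in tandem when unequal crossing over or errors of replication leave a second copy beside the first, on the same strand. Copies can then take on different functions, stay alike, or decay. Families known for growing in this way include immune receptors, enzymes that modify foreign compounds, keratins, globins and genes expressed in germ cells. In a draft annotation, a gene model can also cover only a stretch of a gene, so neighbouring models of 1 name need not be separate genes.

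The tandem models formed 277 arrays on 70 scaffolds, an array being a chain of models joined by the rule. Most arrays were pairs: 235 held 2 copies, 27 held 3 and 11 held 4. The remaining 4 held 5 copies (2 arrays), 6 copies and 10 copies. Scaffold 14 carried the most arrays, 18, followed by scaffold 36 with 17 and scaffolds 2 and 5 with 16 each. These counts do not allow for the number of models on a scaffold. Tandem models were 6.41% of the multi-exon models on scaffold 14, 7.76% on 36, 2.64% on 2 and 3.98% on 5. Over all scaffolds they were 621 of 17144. Among 7 names with more than 1 array, TRIM38 had 8 and BMS1P20 had 6.

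Adjacent copies are consecutive models of an array. Where another model joined them, their own target ranges could overlap by less than 50% of the shorter, down to 0%. Adjacent copies lay a median of 10608 bp apart (95% interval 8534 to 12583, 344 adjacent pairs), and 48.8% of pairs were under 10 kb apart. A model of another name lay between the copies in 53 of the 344 pairs, or 15.4%. Equal numbers of exons were found in only 60 of the 344 pairs, or 17.4% (Wilson 95% interval 13.8 to 21.8). The lower match score of a pair was a median of 61.5% of the higher (54.8 to 70.4). The match score is the annotation's own value for how well a model matched its target, with no stated unit. These intervals cover counting only, and pairs of 1 array share models. At the distance limit, the farthest pair inside was CES1 at 99734 bp and the nearest outside was KNG1 at 101024 bp. At the overlap limit, CD84 stood inside with 50.1% and HERC6 outside with 47.7%.

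The arrays divided almost evenly by whether their copies had been matched to 1 target record or to several records of the same symbol. All copies shared 1 record in 139 arrays, and 138 arrays used several. This division was made after values had been seen. Positions on different records are not measured on 1 sequence, so the overlap of such copies is not a measured overlap of the same bases. Among adjacent pairs, 201 shared a record and 143 did not.

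Pairs on 1 record were farther apart and closer in score than pairs on different records. Their median distance was 14266 bp (12088 to 16958), against 5258 bp (3130 to 7528) for different records. Only 7.46% of pairs on 1 record were under 1 kb apart (4.57 to 11.9), against 26.6% on different records (20 to 34.4). The lower score was a median of 78.3% of the higher on 1 record (71.3 to 84.7) and 42.9% on different records (35.2 to 48.7). None of these pairs of intervals overlap. The intervals treat pairs as independent, although pairs of 1 array share models. Names with many pairs, such as TRIM38 and BMS1P20, therefore weigh more.

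**Figure D1:**
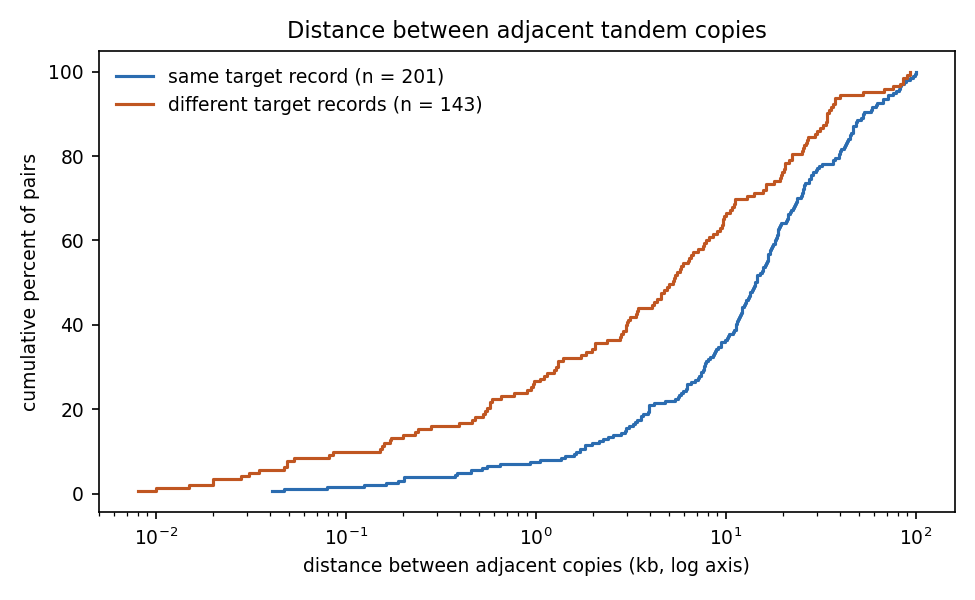
Cumulative percent of pairs of adjacent copies in arrays (vertical axis) by the distance between the copies in kb (horizontal log axis). Blue is 201 pairs on the same target record and orange 143 on different records. The orange curve lies to the left: 66.4% of pairs on different records and 36.3% of pairs on the same record were under 10 kb apart.

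Exon lengths were not part of the rule, but they are not independent of the target overlap that it required. For each pair, the exon lengths that recurred in the same order in both models were counted and divided by the smaller number of exons. At least 50% of exon lengths were shared in 84 of 201 pairs on 1 record, or 41.8% (35.2 to 48.7). On different records it was 13 of 143, or 9.09% (5.39 to 14.9). Neighbouring multi-exon models with different names, as a background, reached it in 231 of 5851 pairs, or 3.95% (3.48 to 4.48). Exon lengths were therefore shared most often by copies matched to 1 record, and pairs on different records lay nearer to unrelated neighbours. The background pairs did not have to overlap on a target. By the positions given, the median overlap was 73.3% of the longer range on 1 record and 31.4% on different records.

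Where both models had at least 5 exons, 44 of 71 pairs on 1 record shared at least 50% of their exon lengths, or 62% (50.3 to 72.4), against 9 of 61 on different records, or 14.8% (7.96 to 25.7). The background was 4.67% of 3340 neighbouring pairs. Over pairs of all sizes, exon numbers were equal in 25.9% of pairs on 1 record (20.3 to 32.3), 5.59% on different records (2.86 to 10.7) and 8.32% of unrelated neighbours (7.64 to 9.06). With at least 5 exons in both models these shares were 15.5% (8.88 to 25.7), 6.56% (2.58 to 15.7) and 8.47% (7.58 to 9.47). The intervals for pairs on 1 record and on different records overlapped. No exon length was shared in 38.3%, 66.4% and 66.9% of pairs of all sizes in the same order.

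**Figure D2:**
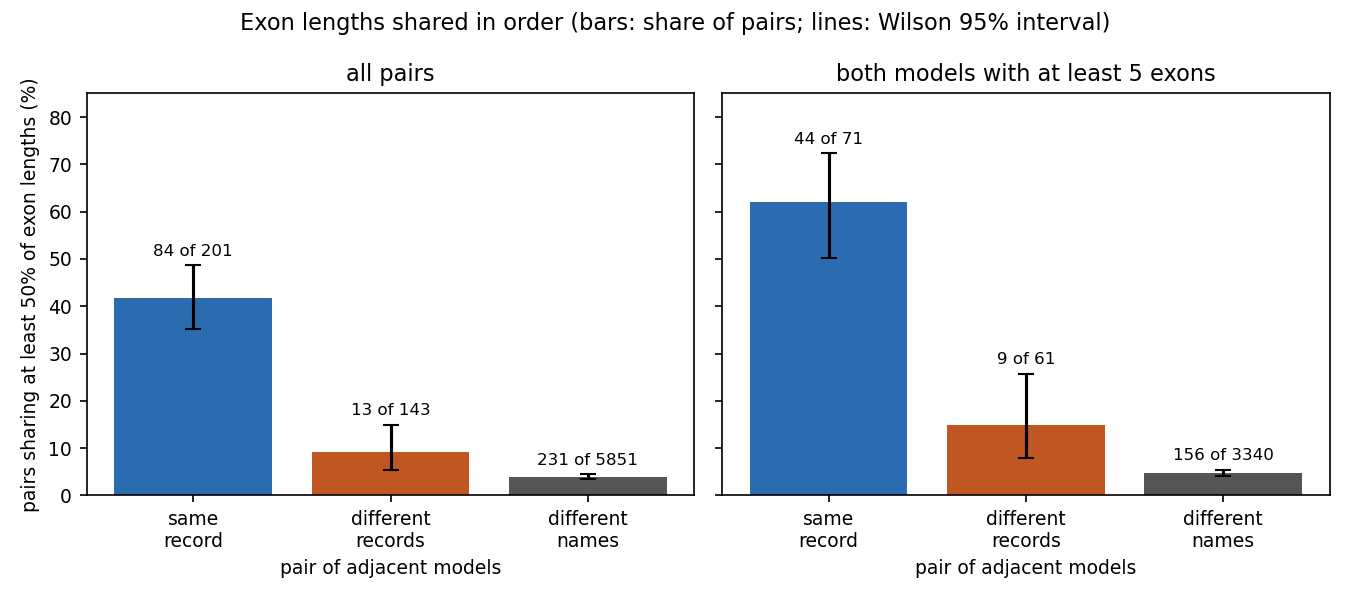
Percent of neighbouring model pairs that share at least 50% of their exon lengths in order, for all pairs (left) and pairs with at least 5 exons in both models (right); bars are shares, lines are Wilson 95% intervals and numbers are pairs. Copies on the same target record reached 41.8% and 62%, copies on different records 9.09% and 14.8%, and neighbours of different names 3.95% and 4.67%.

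The order of the matched ranges along the direction of transcription was also compared, by the positions given. Positions on different records are not on 1 sequence, so for such pairs later and earlier refer to the position numbers only. The downstream model started and ended later on the target in 45 of 143 pairs on different records, or 31.5% (24.4 to 39.5), and in 27 of 201 on 1 record, or 13.4% (9.4 to 18.8). It started and ended earlier in 14.7% (9.81 to 21.4) and 12.4% (8.57 to 17.7). In the remaining pairs 1 range lay within the other, shared an end with it or equalled it. Whether a given pair is 1 gene or several was not tested.

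A gene table of another mole assembly, MPIMG_talOcc4v2.1, gave a second view by the order of gene names alone. Named genes flanking an array were looked up there, and the genes lying between them were counted. Both neighbours were found for 99 of 139 arrays on 1 record and for 127 of 138 on several records. Of the 259 tandem names, 147 are symbols of coding genes in that table, each listed once. The array's own symbol lay in the interval for 32.3% of arrays on 1 record (23.9 to 42) and 78% on several records (70 to 84.3). Where it did, no unnamed coding gene lay beside it for 14 of 32 arrays on 1 record, or 43.8% (28.2 to 60.7), and for 71 of 99 on several records, or 71.7% (62.2 to 79.6). For names with a single multi-exon model, taken only where the table lists the symbol, it was 76.8% of 10965 (76 to 77.6). Where the symbol was present, arrays on several records thus resembled single-model names more closely than arrays on 1 record did. Intervals were not matched for the number of genes they held. A wider interval has more room for an unnamed gene, which bears on these shares and on those that follow.

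Over all arrays with both neighbours, present symbol or not, at least 1 unnamed coding gene lay in the interval for 81.8% of arrays on 1 record (73.1 to 88.2), 41.7% on several records (33.5 to 50.4) and 23.3% of 11176 single-model names (22.5 to 24.1). Arrays whose own symbol does not lie in the interval enter these shares, and they were more frequent among those on 1 record. The interval held at least as many unnamed or same-symbol coding genes as there were copies for 77.8% of arrays on 1 record (68.6 to 84.8) and 38.6% on several (30.6 to 47.3). Each array was counted alone, and some arrays had the same interval. GIMAP5 and GIMAP7, for example, both lay between GIMAP8 and AOC1, and the same 12 unnamed coding genes were counted for each. The arrays are thus not independent in these shares. Whether the unnamed genes are the copies is not known, because the table gives them no symbol.

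**Figure D3:**
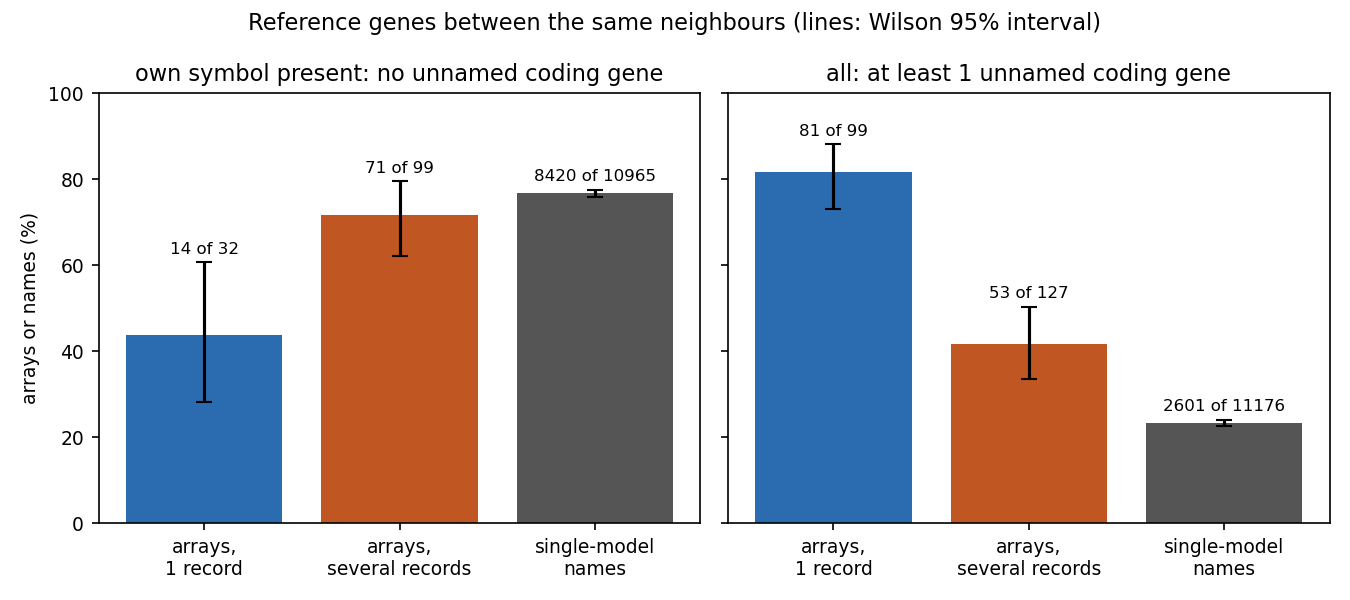
Left, among arrays or names whose own symbol lies between the same neighbours in the other assembly's gene table, the percent with no unnamed coding gene there; right, among all with both neighbours found, the percent with at least 1. Blue is arrays on 1 target record, orange arrays on several, grey names with a single multi-exon model, and lines are Wilson 95% intervals; the shares are 43.8%, 71.7% and 76.8% on the left and 81.8%, 41.7% and 23.3% on the right.

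Arrays of at least 4 copies were found for 12 names, of which CD163L1, KLRD1, NLRP1 and TRIM38 belong to the immune group of prefixes described below. PRF1 encodes perforin, the pore-forming protein of cytotoxic lymphocytes. Its 4 copies lay on the minus strand of scaffold 11, at 21093278 to 21095901, 21116713 to 21119348, 21201767 to 21394783 and 21470378 to 21472992. Each had 2 exons and 1668 coding bp, and all 4 had the same exon lengths in the same order. Their scores were 1231, 1244, 1216 and 1240. The copies were thus near equals by every value available, except that 1 of them spanned 193017 bp and the others 2615 to 2636 bp. Between NODAL and TBATA the reference table listed 1 PRF1, 9 unnamed coding genes and 4 pseudogenes.

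UBD encodes a ubiquitin-like modifier induced in immune responses. Its 4 copies on the plus strand of scaffold 48, from 3915254 to 3969383, had 2, 3, 2 and 2 exons and scores of 430, 489, 434 and 505. All matched 1 record over nearly the same range, from between positions 221 and 252 to between 718 and 722, yet adjacent copies shared no exon length. Nearly equal target ranges and differing exon lengths were therefore found together.

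TRIM38 encodes a ubiquitin ligase that regulates innate immune signalling. It had 8 arrays on 7 scaffolds, and its arrays on scaffolds 100, 135 and 146 held 4 copies each. Scores within its arrays ran from 203 to 1077, so some copies matched less well than others. The model with the score of 1077, on scaffold 47, had 6 exons, and its neighbour 11848 bp away had 7 exons and a score of 515. All multi-exon models considered on scaffolds 135 and 146 were TRIM38 copies, 4 on each. All TRIM38 arrays used 1 record.

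Lectin-like receptors filled part of scaffold 34. KLRD1, which encodes CD94, a receptor subunit of natural killer cells, had 4 copies there with 29, 6, 10 and 6 exons and scores of 295, 220, 281 and 218. LOC374443 had 4 copies between KLRF2 and PZP with 5, 4, 6 and 5 exons and scores of 269, 257, 253 and 249. The reference table listed 8 unnamed coding genes in that interval, beside CLEC2A, KLRF1 and CD69. LOC374443 scores spanned a narrower range than KLRD1 scores.

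CD163L1, a scavenger receptor with cysteine-rich domains, had 5 copies on the minus strand of scaffold 34 between 2725132 and 3117717. In order of position they had 6, 12, 9, 28 and 13 exons and scores of 355, 446, 356, 404 and 399. Adjacent copies lay 13739 to 41906 bp apart and shared 33.3% to 44.4% of exon lengths. The reference table had 5 unnamed coding genes and no CD163L1 between CLEC4E and PEX5, the same number as the copies.

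The largest array, 10 copies of LOC107986994 on the plus strand of scaffold 9 from 42425892 to 42683320, carried a symbol without a gene name. Of the 10 models, 7 had 2 exons with 366 to 372 coding bp, and the others had 4, 4 and 5 exons. Scores ran from 159 to 404, and 8 of the 10 were at least 350. Between PAX8 and EIF2AK3 the reference table listed 20 V segments, the gene segments that encode variable domains of antigen receptors, and 1 unnamed coding gene. The short models of 2 exons lay where the other assembly's table has V segments. Another 2 copies made up scaffold 2448.

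BMS1P20, a symbol given to a pseudogene of BMS1, had 20 tandem models in 6 arrays on scaffolds 14, 63, 339 and 379. The largest array held 6 copies on scaffold 63, with scores of 286, 266, 308, 278, 292 and 118. An array of 4 on scaffold 14 had scores of 265, 317, 313 and 281. The array of 4 lay between BCR and LBR, where the reference table listed 6 V segments among 54 other named genes. IGLL5, an immunoglobulin lambda-like gene named here after its values were seen, also had 3 copies on scaffold 14, with scores of 341, 366 and 370.

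In 4 of the 12 names the arrays used several records. SLC17A4, an organic anion and phosphate transporter of the gut, had 4 copies on scaffold 40 with 9, 11, 11 and 10 exons and scores of 915, 1249, 1209 and 1269. Adjacent copies shared 63.6% to 90% of exon lengths, and the reference table had 10 unnamed coding genes between SLC17A3 and SCGN. By these values its copies resembled those of arrays on 1 record, but only its adjacent pair of 9 and 11 exons was on different records.

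ABCA13, a large transporter of the ABC family, differed from SLC17A4. A model of 49 exons with a score of 6560 was followed by 4 models of 2 or 3 exons, with scores of 1778, 637, 196 and 263. The small models matched successive ranges, 3457 to 5837, 5857 to 6805, 9258 to 9476 and 9574 to 9971, and did not overlap each other on the targets. They shared no exon length with their neighbours. They met the rule through the long model, whose range of 1892 to 15105 on another record held theirs.

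NLRP1, an inflammasome sensor, had 4 models with 6, 3, 8 and 18 exons and scores of 280, 120, 890 and 1059. FAM26F, of the calcium homeostasis modulator family, had 4 with 4, 4, 6 and 2 exons and scores of 380, 496, 217 and 313. In both arrays the lowest score was less than 50% of the highest.

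**Figure D4:**
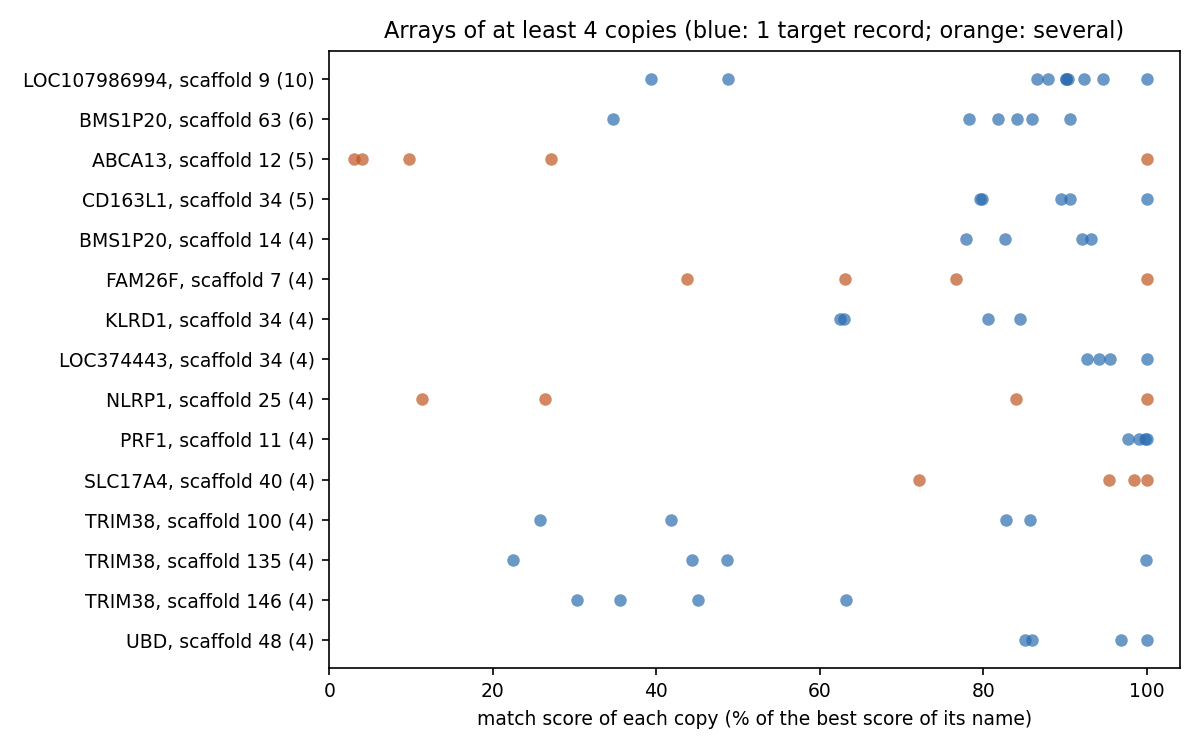
Match score of each copy as a percent of the best score of its name (horizontal axis) in the 15 arrays of at least 4 copies (rows, with scaffold and number of copies); blue points are arrays on 1 target record and orange points arrays on several. All PRF1 copies lie between 97.7% and 100%, while 4 ABCA13 models lie between 2.99% and 27.1%.

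Among genes of reproduction and the germ line, 5 of 160 names, or 3.12%, were tandem, each with 2 copies. TDRD9 encodes a helicase of the transposon-silencing pathway of germ cells. Its models on the plus strand of scaffold 29 had 17 exons (24414915 to 24435948) and 11 exons (24438319 to 24449070), scores of 1304 and 975, and a distance of 2370 bp. They matched different records, at 330 to 2014 and 1287 to 2720, and shared no exon length. Between PPP1R13B and KIF26A the reference table listed 1 TDRD9 and no unnamed coding gene. The TDRD9 overlap of 50.8% was close to the limit of the rule.

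CRISP2, a cysteine-rich secretory protein of the testis and sperm, had models of 10 and 7 exons with scores of 898 and 454 on scaffold 7. They used different records but shared 4 exon lengths, 57.1% of the smaller number. The reference table had 3 unnamed coding genes and no CRISP2 between RHAG and PGK2. SPATA21, named for its association with spermatogenesis, had models of 6 and 2 exons with scores of 518 and 317. They matched different records, shared no exon length, and stood where the table lists 1 SPATA21 and no unnamed coding gene.

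ADAM1A, of the ADAM family of membrane proteins that act in sperm, had models of 3 and 2 exons with scores of 999 and 1061, 3384 bp apart on scaffold 27. Both matched 1 record from position 250, to 2326 and to 2313. MAGEB5, of a family expressed in testis, had 2 models of 3 exons, 925 bp apart on scaffold 24, with scores of 456 and 398. Neither pair shared an exon length, although both matched 1 record over at least 82.1% of the longer range. In the reference table the ADAM1A interval held 1 pseudogene and no coding gene of the symbol, and that of MAGEB5 held 12 unnamed coding genes.

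Another 3 names known from reproduction, outside the fixed prefixes and named after their values were seen, had copies of unequal score. They do not stand for all such names. ARMC3, an ungrouped name of testis and sperm described below, had closer scores of 2375 and 1886. FSHB, the beta subunit of follicle-stimulating hormone, had a model of 2 exons with a score of 490 and, 46410 bp away, 1 of 6 exons with a score of 192. PIWIL1, a germ cell Argonaute protein, had models of 12 and 3 exons with scores of 1785 and 271 on different records. SPAM1, a sperm hyaluronidase, had tandem models with scores of 188 and 452. For FSHB and PIWIL1 the reference table had 1 gene of the symbol and no unnamed coding gene in the interval, and for SPAM1 it had 13 unnamed ones and no SPAM1.

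Steroid and xenobiotic metabolism had 12 tandem names of 94, or 12.8%, the highest share of the 12 gene groups compared. Its 26 models formed 12 arrays, 9 of them on 1 record, and 9 of 14 adjacent pairs shared at least 50% of exon lengths. The median distance was 15014 bp and the median score ratio 72.9%. The prefixes that define the groups were chosen with earlier results of these data known, so the order of the shares is a description.

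Glutathione S-transferases, which couple glutathione to reactive compounds, made up 5 of the 12. GSTM1 had 2 copies of 8 exons on scaffold 21, with scores of 663 and 710, and shared 6 exon lengths. GSTP1 had 3 models with 6, 4 and 4 exons and scores of 793, 411 and 239. The GSTP1 models of 4 exons lay 124 bp apart, and their ranges of 481 to 857 and 285 to 482 scarcely overlapped. GSTA1 had scores of 384 and 772, GSTT1 225 and 664, and GSTT2B 724 and 162. GSTM1 was the member of this family whose copies were most alike in score.

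UGT2B17 encodes an enzyme that attaches glucuronic acid to steroids. Its 2 copies of 6 exons on scaffold 10 had scores of 1199 and 1534 and shared 4 exon lengths. FMO9P, of the flavin-containing monooxygenase family, had 3 models with 8, 4 and 4 exons and scores of 338, 253 and 256. Between FAM78B and CFAP126 the reference table held 5 unnamed coding genes and no FMO9P.

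AOX1, an aldehyde oxidase, had tandem models of 33 and 31 exons on scaffold 23, 3907 bp apart, that shared 25 exon lengths, or 80.6%. Their scores were 304 and 353, only 6.32% and 7.34% of the best AOX1 score, which belonged to a model outside the array. Similar exon structure thus went with low scores. By the positions given, the target ranges overlapped by 100% of the shorter but only 9.88% of the longer. The reference table listed 3 unnamed coding genes and no AOX1 between NLRP7 and CLK1.

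Other enzymes of the group differed in how even their copies were. ADH6, an alcohol dehydrogenase, had models of 10 and 7 exons with scores of 403 and 328 that shared 71.4% of exon lengths. CES1, a carboxylesterase, had models of 13 and 2 exons with scores of 916 and 214. NAT8, an acetyltransferase, had 2 models of 2 exons with scores of 411 and 292 and no shared exon length.

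The immune group had the most tandem names, 26 of 398, or 6.53%, with 87 models in 35 arrays. Of these arrays, 29 were on 1 record, a share of 82.9% against 50.2% over all arrays. At least 50% of exon lengths were shared in 14 of its 52 adjacent pairs, against 97 of 344, or 28.2%, over all pairs, and the median distance was 17300 bp. CD163L1, KLRD1, TRIM38 and NLRP1, described above, had the most copies.

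Proteases and their inhibitors had 8 tandem names of 176, or 4.55%. CTRB1, a chymotrypsinogen of the pancreas, had 3 models with 11, 5 and 9 exons and scores of 136, 167 and 516, and the reference table listed 31 unnamed coding genes between BCAR1 and ZFP1. CASP4, an inflammatory caspase, had models of 5 and 9 exons with scores of 348 and 506. A2ML1, a broad protease inhibitor, had a model of 8 exons 170 bp from its model of 27 exons, with scores of 1249 and 3801. The smaller A2ML1 model matched 2041 to 3060, within the 181 to 3510 of the larger on another record.

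Keratins and skin barrier genes had 5 tandem names of 161, or 3.11%, all on 1 record. KRT6A, an epithelial keratin, had 7 and 8 exons, scores of 1398 and 1529, and 57.1% of exon lengths in common. KRT17 had 3 models with 3, 4 and 7 exons and scores of 684, 980 and 1070, the first pair 41 bp apart with target ranges that did not overlap. KRT38, a hair keratin, had 3 models with scores of 1221, 691 and 1004, and KRTAP2-1, a keratin-associated protein of hair, had scores of 460 and 371.

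Transporters and channels had 12 tandem names of 627, or 1.91%. Besides SLC17A4 and ABCA13, ABCA7 had models of 20 and 21 exons only 240 bp apart, with scores of 2778 and 2107 on different records and 1 exon length in common. The reference table listed 1 ABCA7 and no unnamed coding gene between its neighbours. SLC12A9 had 13 and 3 exons with scores of 3342 and 447.

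Zinc finger proteins had 4 tandem names of 312, or 1.28%, each with 2 models. ZNF318 had scores of 921 and 2894, ZNF513 of 757 and 641, ZNF717 of 222 and 631, and ZNF782 of 396 and 310. The ZNF513 models lay 8 bp apart, the closest of the 344 pairs, and none of the 4 pairs shared at least 50% of exon lengths.

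Tandem names were 4 of 175 in the cytoskeleton group (2.29%), 2 of 201 in the ribosome, translation and proteasome group (0.995%), 1 of 25 globins and blood proteins (4%) and 1 of 30 chemosensory receptors and carriers (3.33%), beside 1.61% over all names. MYL12B, a myosin light chain, had 2 copies of 3 exons with a score of 781 each and the same exon lengths. The other 4 pairs named here shared no exon length. TUBA3D, an alpha tubulin, had scores of 599 and 1977. DNAH17, a dynein heavy chain of sperm flagella, had 5 and 17 exons with scores of 742 and 2203 on different records. KIF26B, a kinesin, had 2 and 11 exons, with scores of 2887 and 3378, 151 bp apart. PSMA8, a proteasome subunit of germ cells, had scores of 1046 and 195.

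HBD, a beta-type globin, had 2 copies of 3 exons on scaffold 18 with a score of 470 each and identical exon lengths, 6870 bp apart. TAS2R4, a bitter taste receptor, had 2 copies of 2 exons with scores of 645 and 612. No tandem name was found among 19 names of digestive enzymes and lipases.

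Among names outside these groups, 10 were chosen because even their smaller model had many exons. HERC2, a giant ubiquitin ligase, had models of 58 and 35 exons, 479 bp apart on scaffold 33, with scores of 11520 and 7811. They matched 2534 to 11378 and 131 to 5783 of different records and shared 3 exon lengths. On the minus strand, the model transcribed first held the range of lower positions, but on another record. The reference table had 1 HERC2 and no unnamed coding gene between OCA2 and NIPA1.

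DMD, which encodes dystrophin, had models of 36 and 26 exons, 37392 bp apart on scaffold 24, with scores of 5831 and 5375. They matched 2549 to 7994 and 1322 to 4773 of different records, shared 1 exon length, and together spanned 1272 kb. The reference table had 1 DMD and 6 unnamed coding genes in the interval. TNXB, an extracellular matrix protein, had models of 22 and 19 exons 201 bp apart that matched 1 record but shared 1 exon length, with scores of 1994 and 3772. In these names many exons did not go with a shared structure.

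CLCA4 and PARP14 copies were alike in both exon lengths and scores. CLCA4, a regulator of chloride channels, had 2 models of 14 exons on the plus strand of scaffold 2, at 62435080 to 62469779 and 62479702 to 62515813. Their scores were 2429 and 2401, and 11 of 14 exon lengths recurred in order. The reference table had 3 unnamed coding genes beside CLCA1 and CLCA2 between ODF2L and SH3GLB1. PARP14, an ADP-ribosyltransferase of macrophages and interferon responses, had 3 models on the minus strand of scaffold 4, with 15, 17 and 17 exons and scores of 4403, 4831 and 3762. Adjacent PARP14 copies shared 66.7% and 82.4% of exon lengths. The table had 1 PARP14, 2 unnamed coding genes and PARP15 between HSPBAP1 and DTX3L.

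**Figure D5:**
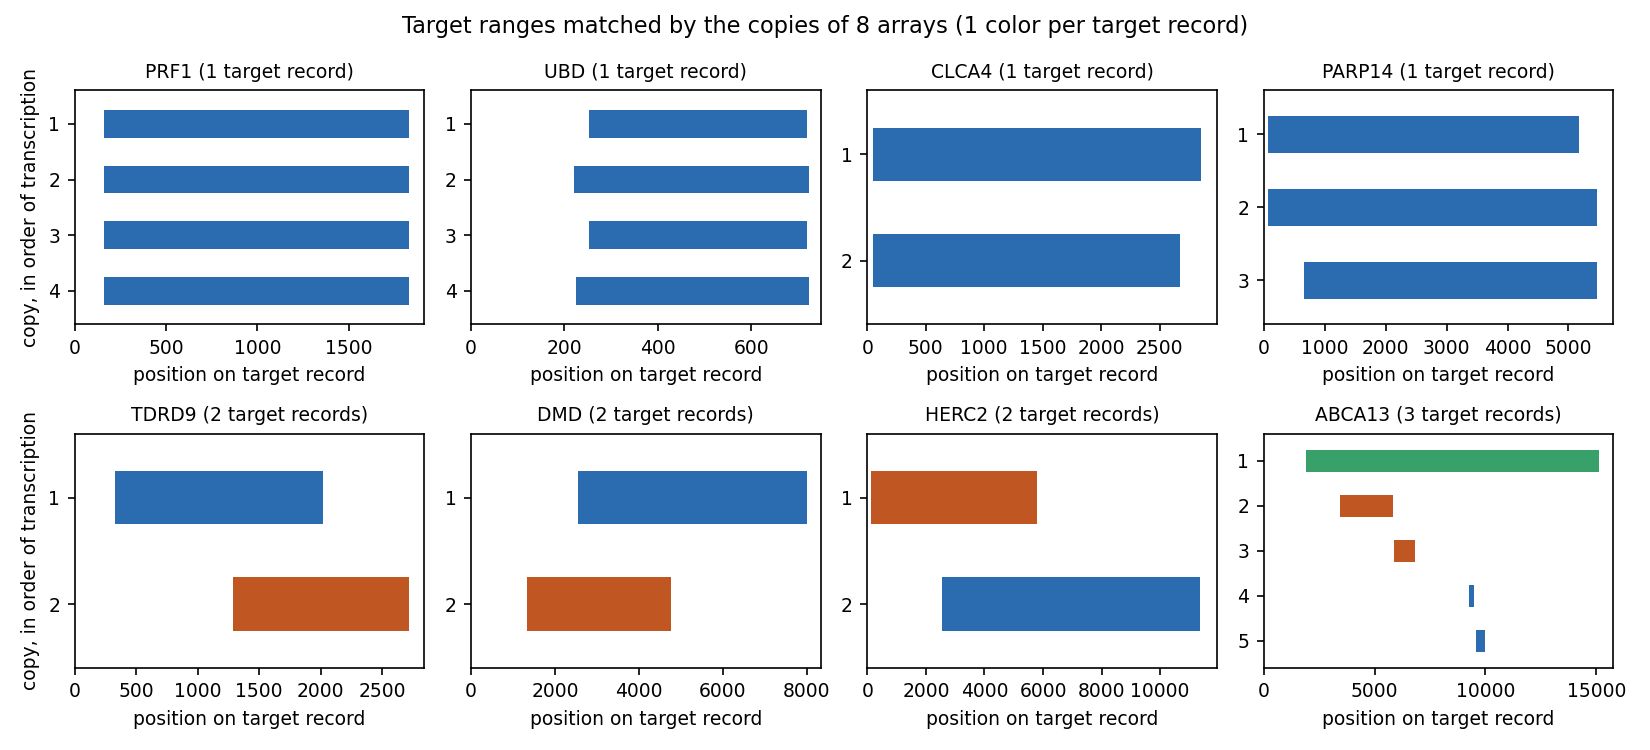
Range of the target record (horizontal axis, positions) matched by each copy (bars, in order of transcription from the top) in 8 arrays, with 1 color per record; positions on bars of different color are not on 1 sequence. PRF1, UBD, CLCA4 and PARP14 copies cover nearly the same range of 1 record, while TDRD9, DMD, HERC2 and ABCA13 models cover offset or nested ranges of several.

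In 4 other names of the 10, similar exon structures came with unequal scores. P4HA2, a collagen prolyl hydroxylase, had 2 models of 14 exons that shared 11 exon lengths, with scores of 2223 and 304. CP, the copper protein ceruloplasmin, had 17 and 18 exons, 9 shared lengths and scores of 3866 and 258. DDX60, an antiviral helicase, had 25 and 34 exons, 14 shared lengths and scores of 1932 and 503. GLB1L2, a beta-galactosidase-like protein, had 17 and 20 exons, 10 shared lengths and scores of 1145 and 327. In each of these 4 names the weaker model matched the record over less than 50% of the longer range. ARMC3, an armadillo repeat protein of testis and sperm, was more even, with 14 and 17 exons, 10 shared lengths and scores of 2375 and 1886.

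Identical exon lengths throughout were found in 11 of 344 adjacent pairs, all of them on 1 record. PRF1 gave 3, LOC107986994 gave 4, and BMS1P20, HBD, MRPS36 and MYL12B gave 1 each. The pairs of HBD, MRPS36 and MYL12B also had equal scores, 470, 456 and 781. MRPS36, of the mitochondrial ribosome, was named after its values were seen. Its copies of 4 exons lay 23680 bp apart on scaffold 8, and the reference table listed 1 MRPS36 and no unnamed coding gene between CCDC125 and SLC30A5.

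The tandem names were set beside 1113 other names with at least 2 multi-exon models that did not meet the rule. Of these, 659 had models within the distance limit whose target ranges overlapped too little, 359 had models on different scaffolds only, 50 on opposite strands only, and 45 overlapped or lay too far apart. The 2 models of highest score of each name were compared. For tandem names they were taken among the tandem models only, and for the others among all multi-exon models. Exon numbers were equal in 15.1% of 259 tandem names (11.2 to 19.9) and 8.45% of 1112 others (6.96 to 10.2). At least 50% of exon lengths were shared in 26.6% (21.6 to 32.3) and 9.26% (7.7 to 11.1). The same record was used by 49% (43 to 55.1) and 56.1% (53.2 to 59), and the median score ratio was 54.6% (48.2 to 66.5) and 49.9% (46.6 to 52.8). The rule itself required overlapping target ranges, so the comparison was repeated on the names whose 2 best models overlapped by at least 50% of the shorter range. At least 50% of exon lengths were then shared in 26.7% of 258 tandem names (21.7 to 32.5) and 22% of 396 others (18.2 to 26.3), and exon numbers were equal in 15.1% (11.3 to 20) and 10.9% (8.16 to 14.3). With overlap required in both, these intervals overlapped. Those for the same record did not: it was used by 49.2% of tandem names (43.2 to 55.3) and 67.2% of the others (62.4 to 71.6). The median score ratio was 55.4% (48.1 to 66.8) and 58.6% (53.1 to 63.9).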

How the data were processed

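The authors deposited gene models on assembly talOcc3, from sources named EVM, exonerate and ALN, in which each mRNA line carries a score, a target record and a target range. The score is used as deposited; no source used here states its unit or the aligner. Target positions were used as given. The model's own matched range was 0.8 to 1.25 times the target range in 571 of 621 tandem models, so that both counted bases. It was 2.4 to 3.6 times the target range in 9, the ratio that amino acid positions would give. In 7 of 400 tandem pairs, of 5 names, only 1 model had that ratio, and their overlap may compare unlike positions. STAR 2.6.1d is listed for the series in the submitters' processing notes. Gene models hold no read depth, samples or replicates, so no test between groups was made. The chromatin segmentations lie on talOcc4 and were not used here, because coordinates were not carried between assemblies.

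Models were keyed by gene ID, scaffold and start, since 23336 models carry 23266 IDs. For 13 mRNA lines without exactly 1 gene line the mRNA's coordinates served. Models without a target (1863) could not meet the rule. Distances are between gene ends, and positions count from 1. Arrays are connected groups of tandem pairs. Shares carry Wilson intervals and medians order-statistic intervals, at 95%. Neighbours in the reference table were sought among 10 models on each side, up to 3 usable names each, with at most 200 genes between. The members, gene lists and limits were chosen with earlier results of these data known. Named are all names with at least 4 copies in 1 array, all names of the reproduction and steroid groups, up to 4 names of each other group (most copies, then alphabetical), the pairs nearest each limit, and the 10 ungrouped names with the most exons in the smallest copy; a few names that this rule takes are not reported here. Groups are defined by symbol prefixes. After names were seen, the prefixes CD, IL, ADAM and MX were limited to names with a digit next and SI, CEL and C4 to exact matches. The split by record, the exon-length measure, the backgrounds, the comparison restricted to overlapping models and the limits of 1 kb, 10 kb and 5 exons were also chosen after values were seen. The rule was tested on simulated data. Analyses used Python 3.11.15, numpy 2.4.6, scipy 1.17.1 and matplotlib 3.10.9.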

Additional observations from a re-analysis of the deposited data

How the results depend on the processing

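Over 8 alternative settings of the rule and 5 summary values, 30 of 40 values stayed within the limits for an unchanged result (1.5 times for counts, the 95% interval for the others). Requiring target overlap of at least 50% of the longer range left 131 names, 329 models, 21 names with at least 3 copies (37 under the rule as given), a median distance of 13376 bp and 26.6% of adjacent pairs with equal exon numbers. Requiring the same target record, an alternative added after the data had been seen, left 133 names and 348 models, with 15074 bp and 26.1%. Requiring directly adjacent models gave a median distance of 7752 bp. These 3 settings only narrow the rule, so the 131, 133 and 222 names they left are among the 259 by construction. The distance limit (50 or 200 kb) gave 239 and 264 names. No paired analysis was possible because the gene models belong to no sample or replicate. Without sequences, the similarity of copies could not be measured, and collapsed or split copies of the draft assembly cannot be told apart from differences in gene number.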
